A study of Mus musculus with 12 samples.

Results

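The antimicrobial effectors of Paneth cells were read probe by probe in the lung and the ileum of neonatal mice that had breathed room air or excess oxygen. The genes were Lyz1, Defa3, Defa20, Defa21, Defa23, Defa26, Ang4, Mmp7, Itln1 and Mptx1, and every probe annotated to one of them by its current or an older symbol was taken, whatever its value. This gave 17 probes of 10 genes, out of 45281 probes and 19057 genes on the array. Lyz1, Defa3 and Defa20 had 3 probes each, Mptx1 had 2, and the other genes had 1. The pups were labelled C57BL/6 (C57Bl/6 J, Jackson Laboratory, by the methods), aged 14 days and with no engineered allele named, and all were kept from day 3 to day 14 either in normoxia (inspired oxygen of 21%) or in hyperoxia (inspired oxygen of 85%). The 12 bead arrays fell into 4 groups of 3, namely the lung and the ileum, each in normoxia and in hyperoxia (called normoxia lung, normoxia ileum and so on). The lung was the right lung by the sample labels and the left lower lobe by the methods, and the ileum was the terminal ileum. Pups pooled from several litters were redistributed between dams, and the labels give no litter. Whether lung and ileum arrays came from the same pups is not stated, and they were treated as unpaired. It is also not stated that the 3 arrays of a group came from different pups. The p-values therefore cover the scatter among these arrays, and that scatter may be technical.

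Paneth cells sit at the base of the crypts of the small intestine and secrete granules full of antimicrobial proteins into the crypt lumen. In the mouse these granules hold the P form of lysozyme, many closely related alpha-defensins (cryptdins) and the bactericidal ribonuclease angiogenin 4, and the protease matrilysin cuts the pro-defensins into their active form. The cells appear only after birth in mice and fill the crypts over the first weeks of life.

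The defensin genes lie together on chromosome 8 and are closely related. How far a defensin probe reads more than its own gene was not tested. The promoter identity given here covers 3 of them and does not show which transcripts a probe reads. RefSeq promoters (GRCm38.p6) were matched for 8 of the 10 genes. Over the 120 bases before the annotated start, Defa20 and Defa21 were identical at 95.8% of aligned positions, each was identical to Defa23 at 82.8%, and all pairs with or among the other genes lay between 46.5% and 52.6%. The windows of the 3 defensins are shown, and also that of Mptx1, the member that rose in the hyperoxia ileum. Capitals mark ATCAAAG, a core letter string of TCF/LEF factors (which act in the Wnt pathway), and TATAAA, the TATA box. Each string was searched on both strands. The windows lie at chr8:21509138-21509257 for Defa20, chr8:21025425-21025544 for Defa21, chr8:21054920-21055039 for Defa23 and chr1:174330398-174330517 for Mptx1, all on the plus strand.
Defa20: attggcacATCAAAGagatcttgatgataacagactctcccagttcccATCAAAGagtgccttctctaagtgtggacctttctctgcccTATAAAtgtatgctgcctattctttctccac
Defa21: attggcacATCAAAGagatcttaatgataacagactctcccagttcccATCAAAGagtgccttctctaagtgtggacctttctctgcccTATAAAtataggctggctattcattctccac
Defa23: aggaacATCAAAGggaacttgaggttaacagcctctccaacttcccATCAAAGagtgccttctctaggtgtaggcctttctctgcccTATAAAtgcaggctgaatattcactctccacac
Mptx1: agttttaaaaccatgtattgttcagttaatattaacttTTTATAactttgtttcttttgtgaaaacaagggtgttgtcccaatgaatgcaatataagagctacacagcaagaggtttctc

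Each of the 3 defensin windows held 2 copies of ATCAAAG, and these began at positions -112 and -72 from the start in Defa20 and Defa21 and at -114 and -74 in Defa23. Of 32851 promoters searched over the same 250 bases before the start, 3.21% held at least 1 copy and 0.0822% held 2 or more. No copy was found over these 250 bases in Lyz1, Ang4, Itln1 or Mmp7, whose probes fell in the hyperoxia ileum. Mptx1 held none either. TATAAA began at -31 in Defa20 and Defa21 and at -33 in Defa23, and it was present in 12.4% of all promoters. In Mptx1 it was read on the opposite strand (as TTTATA), with the copy shown running from -82 to -77. These are letter matches and not mapped binding sites.

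Without hyperoxia, 16 of the 17 probes were higher in the ileum than in the lung and 1 did not pass, against 24.7% of all 17778 tested probes that were higher and 28.6% that were lower. Every probe of the alpha-defensins, of Ang4 and of Mmp7, and probe 1 of Mptx1, was undetected on all 6 lung arrays, which have only a bound there. These probes and Itln1, undetected on the normoxia lung arrays, entered this test only through the ileum arrays. Their direction was thus fixed in advance, and the count of 16 is no result about them. Only the Lyz1 probes and Mptx1 probe 2 could have gone either way. How far apart the tissues stood depended on the background correction. After it, and set against the lowest signals above background on the lung arrays, Defa20 was at least 655-fold (probe 1), 368-fold (probe 2) and 558-fold (probe 3) higher in the ileum, while the folds without background correction were 230, 132 and 195. The corrected bound was 498-fold for Defa26, 192-fold for the lectin Itln1, 115-fold for Defa23, 110-fold for Ang4 and 86.2-fold for Defa21, and without correction these folds were 167, 64.0, 40.2, 38.0 and 28.3. At the dim end, Mmp7 was at least 5.00-fold and Mptx1 probe 1 at least 8.85-fold higher after correction, and 2.83-fold and 4.15-fold without it. Mptx1 probe 2 was detected on all 3 normoxia lung arrays near background and was 5.82-fold higher in the ileum (2.51-fold without background correction). As a check of the tissue labels, the summed signal of 6 lung epithelium probes was 56150 to 68980 on lung arrays and 160.4 to 218.3 on ileum arrays.

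**Figure D1:**
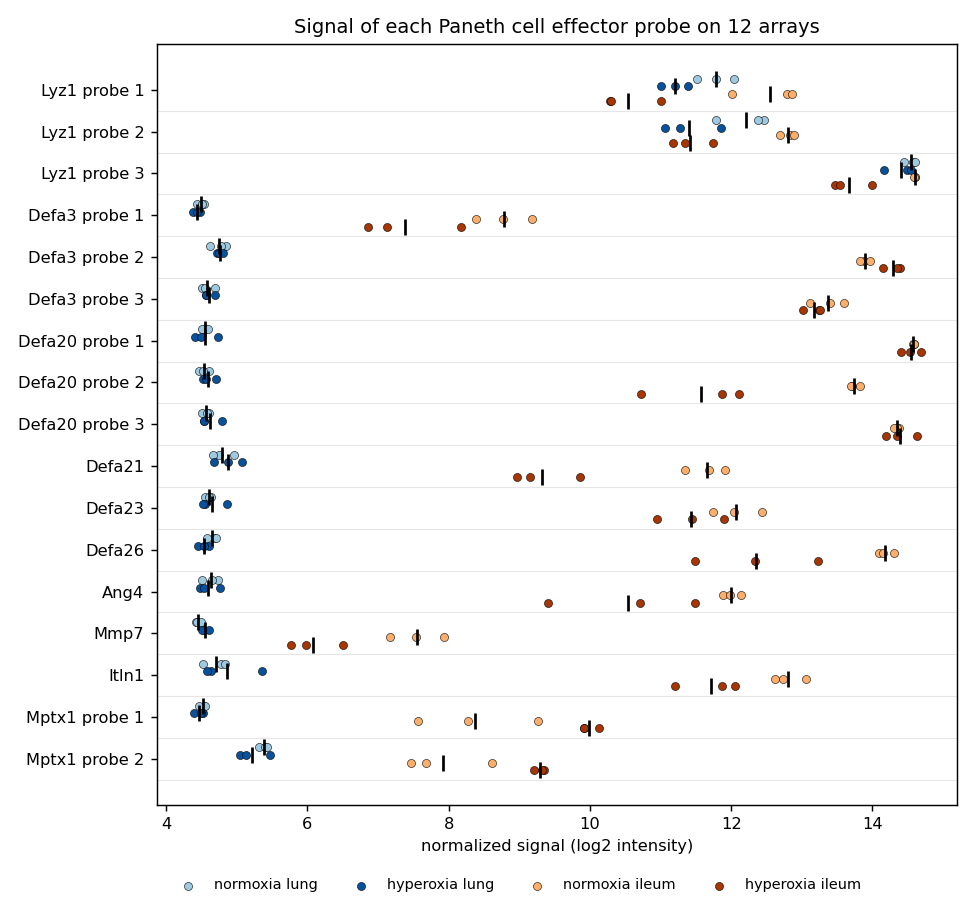
Normalized signal (log2 intensity) of the 17 probes on each of 12 arrays, with points for arrays, colours for the 4 groups and black ticks for group means. Most probes sit between 4 and 6 on every lung array, whereas the 3 Lyz1 probes are bright in both tissues, between 11.01 and 14.61 in the lung.

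In the ileum, most of the effectors fell with hyperoxia, but not every probe of every gene. Of 17 probes, all of which were tested, 10 were lower, 2 were higher and 5 did not pass an adjusted p of 0.05 in limma, against 12.9% of all 17029 tested probes that were lower and 12.3% that were higher. The 10 lower probes came from 8 genes, and in 6 genes (Lyz1, Defa21, Defa26, Ang4, Mmp7 and Itln1) every probe was lower. The 2 higher probes were both of Mptx1. The median log2 fold change of the 17 probes was -1.10 and that of all tested probes was -0.02. The hyperoxia and normoxia arrays did not overlap in 13 of the 17 probes, which was the case for 38.3% of all tested probes. The genes were chosen with earlier results of these data known. The study had already reported Lyz1, Ang4 and Itln1 as lower in this ileum, so these counts are not independent support. These are whole pieces of ileum, so fewer Paneth cells and less RNA per cell cannot be told apart.

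**Figure D2:**
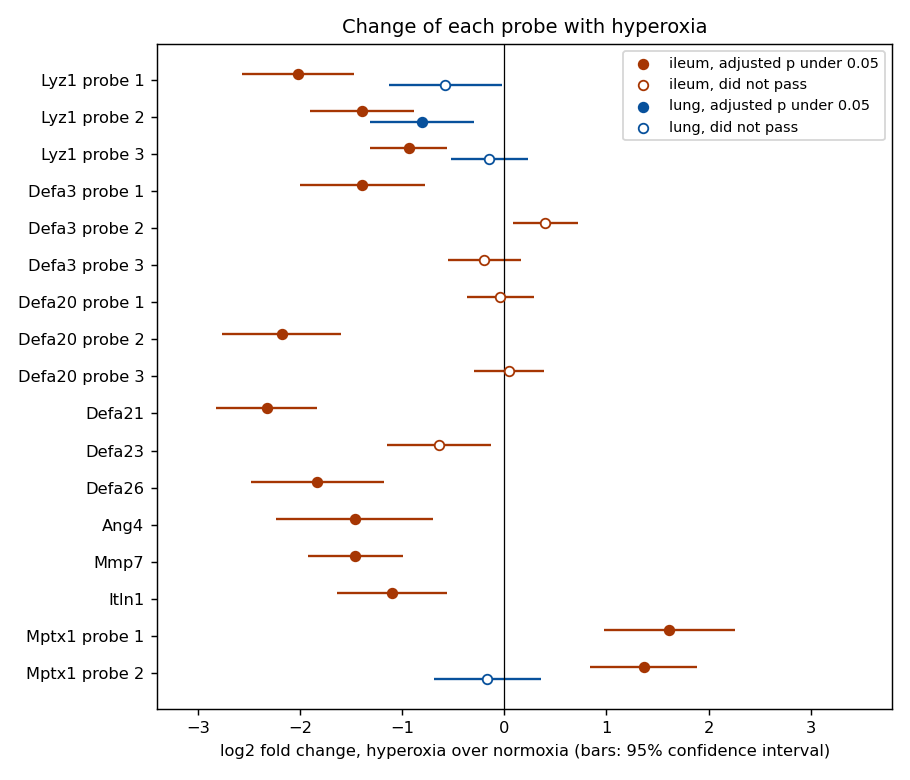
Log2 fold change of each probe, hyperoxia over normoxia, with 95% confidence intervals, in the ileum (17 probes) and for the 4 probes tested in the lung. Filled points passed an adjusted p of 0.05; the lower ileum probes run from -0.94 for Lyz1 probe 3 to -2.33 for Defa21, both Mptx1 probes lie above 1, and Defa20 has 1 probe near -2 and 2 at 0.

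Lyz1 encodes lysozyme, which cleaves the peptidoglycan of bacterial walls, and its 3 probes all fell in the ileum. Probe 1 (ILMN_1247933) read 12.01, 12.79 and 12.86 in normoxia and 10.29, 11.01 and 10.30 in hyperoxia (log2 signal, as for all array values below). The groups were apart, and the first normoxia array was the lowest of its group. The log2 fold change was -2.02 (SE 0.26), a 4.06-fold fall, with an adjusted p of 1.99e-04. Probe 2 (ILMN_2736867) read 12.84, 12.69 and 12.89 in normoxia and 11.34, 11.74 and 11.17 in hyperoxia, again with no overlap. It was lower by 2.62-fold (log2 fold change -1.39, SE 0.24, adjusted p = 0.00162). Probe 3 (ILMN_2878071) was among the brightest spots of the array, with 14.61, 14.61 and 14.59 in normoxia and 13.47, 13.99 and 13.54 in hyperoxia. It fell from rank 9 to 10 of all probes to rank 98 to 186, and its log2 fold change of -0.94 (SE 0.18, adjusted p = 0.00289) was the smallest of the 3.

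Among the alpha-defensins, pore-forming peptides cut from longer precursors, the single probes of Defa21 and Defa26 showed large falls. Defa21 (ILMN_2943256) read 11.35, 11.69 and 11.92 in normoxia and 9.86, 9.15 and 8.97 in hyperoxia. This 5.02-fold fall (log2 fold change -2.33, SE 0.23, adjusted p = 2.62e-05) was the largest of the 17 probes. Defa26 (ILMN_2938932) read 14.10, 14.30 and 14.15 in normoxia and 13.23, 12.34 and 11.49 in hyperoxia. The normoxia arrays lay close together and the hyperoxia arrays were spread, and none of them overlapped. The fall was 3.56-fold (log2 fold change -1.83, SE 0.30, adjusted p = 0.00140). Defa23 (ILMN_1244005), at 12.43, 12.04 and 11.74 against 11.90, 10.95 and 11.44, overlapped between the groups and did not pass (log2 fold change -0.64, 95% CI -1.14 to -0.13, adjusted p = 0.0612).

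Of the 3 probes of Defa20, 1 passed as lower and 2 did not pass. Probe 2 (ILMN_2675560) read 13.72, 13.69 and 13.83 in normoxia and 12.11, 11.87 and 10.72 in hyperoxia, a 4.53-fold fall (log2 fold change -2.18, SE 0.27, adjusted p = 1.73e-04). Probe 1 (ILMN_1230099) read 14.58, 14.57 and 14.58 in normoxia and 14.52, 14.69 and 14.40 in hyperoxia. The hyperoxia arrays of probe 1 lay on both sides of the normoxia arrays, with a log2 fold change of -0.04 (95% CI -0.37 to 0.29, adjusted p = 0.872). Probe 3 (ILMN_2739019) behaved likewise, at 14.37, 14.35 and 14.31 against 14.19, 14.63 and 14.34, and its log2 fold change was 0.04 (95% CI -0.30 to 0.39, adjusted p = 0.866). Before normalization all 3 probes had lower mean intensities in hyperoxia, by unequal amounts. Probe 2 stood at 14918 to 17018 in normoxia and 1354 to 4099 in hyperoxia, probe 1 at 23386 to 25307 and 18018 to 23805, which overlap, and probe 3 at 20918 to 21797 and 15992 to 19983, which do not.

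Of the 3 probes of Defa3, probe 1 was lower and probes 2 and 3 did not pass. Probe 1 (ILMN_1221489) read 9.18, 8.77 and 8.38 in normoxia and 8.18, 7.13 and 6.85 in hyperoxia, with no overlap and a 2.62-fold fall (log2 fold change -1.39, SE 0.28, adjusted p = 0.00468). Probe 3 (ILMN_2691897) read 13.60, 13.41 and 13.11 against 13.24, 13.02 and 13.26, which overlap (log2 fold change -0.20, 95% CI -0.56 to 0.16, adjusted p = 0.397). Probe 2 (ILMN_2524832) read 13.88, 13.97 and 13.82 in normoxia and 14.15, 14.39 and 14.34 in hyperoxia. The hyperoxia arrays of probe 2 were all higher, by a log2 fold change of 0.40 (95% CI 0.08 to 0.72), but the adjusted p was 0.0620. Before normalization the intensities of probe 2 overlapped, at 16979 to 18474 in normoxia and 15976 to 18981 in hyperoxia, whereas those of probe 3 did not, at 10281 to 14062 and 5380 to 9654.

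Whether probes of 1 gene differed in their change was tested on the difference between them within each ileum array, over all 8153 pairs of tested probes that share a gene. Of these, 9 pairs (0.110%) passed an adjusted p of 0.05 and 1334 had an unadjusted p under 0.05. The count of all pairs became 0 when any 1 of the 6 ileum arrays was left out. None of the 10 pairs among the effector genes (count 0) passed, and 7 had an unadjusted p under 0.05. The pairs of Defa20 came nearest. The log2 fold change of probe 1 minus that of probe 2 was 2.14 (95% CI 1.41 to 2.86, adjusted p = 0.0512), and that of probe 2 minus probe 3 was -2.22 (95% CI -3.05 to -1.40, adjusted p = 0.0512), and both pairs did pass under several other settings. Probes 1 and 3 differed by -0.08 (95% CI -0.52 to 0.35, adjusted p = 0.879). For Defa3, probe 1 and probe 2 differed by -1.79 (95% CI -2.71 to -0.87, adjusted p = 0.103), and for Lyz1, probe 1 and probe 3 differed by -1.08 (95% CI -1.70 to -0.47, adjusted p = 0.128).

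**Figure D3:**
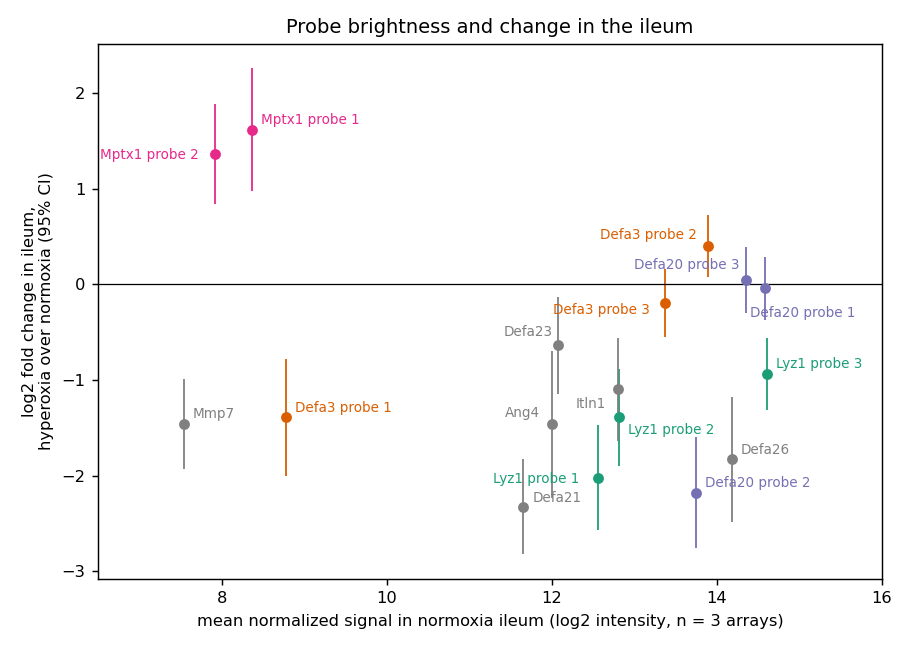
Mean normalized signal of each probe in normoxia ileum (log2 intensity, n = 3) against its log2 fold change in the ileum (bars, 95% confidence interval), with the probes of Lyz1, Defa3, Defa20 and Mptx1 coloured by gene. Among the bright probes on the right, Defa26 and Defa20 probe 2 fell by about as much as Lyz1 probe 1, while Defa20 probes 1 and 3 stayed near 0.

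The defensin probes that did not pass differed in brightness. Defa20 probe 1 ranked 11 to 13 of all probes on the normoxia ileum arrays and 4 to 34 on the hyperoxia ones, and probe 3 ranked 38 to 47 and 8 to 64. Defa3 probe 2, whose change was upward, ranked 101 to 126 in normoxia and 36 to 69 in hyperoxia. Defa3 probe 3 ranked 162 to 264 and Defa23 499 to 916 in normoxia. Of the probes that fell, Lyz1 probe 3 ranked 9 to 10, Defa26 48 to 77 and Defa20 probe 2 125 to 148 there. Rank describes the spot and not the amount of RNA, and the brightest spot of any array had an intensity of 23482 to 33090. How far saturation, or reading of several near-identical defensin transcripts by 1 probe, entered these values was not tested, and the probe sequences were not used here.

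The other defensin genes of the array gave 4 probes, of which 1 was tested in the ileum. That probe, of Defa39, was lower, at -2.32 on the log2 scale (adjusted p = 1.14e-04, limma), close to the values of Defa21 and Defa20 probe 2. The probes of Defa31 and Defa-ps1 were not detected on enough ileum arrays to be tested.

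Ang4, the bactericidal ribonuclease, and Mmp7, the matrilysin that activates mouse pro-defensins, were both lower in the hyperoxia ileum. Ang4 (ILMN_2819112) read 11.88, 12.14 and 11.98 in normoxia and 11.48, 10.71 and 9.41 in hyperoxia. The hyperoxia arrays were all lower but spanned a wide range, with an SD of 1.05 against 0.13 in normoxia (n = 3 each). The log2 fold change was -1.46 (SE 0.36, adjusted p = 0.0110), and the call was lost with the ileum fitted alone or with an ordinary linear model (adjusted p up to 0.0586). Mmp7 (ILMN_2659804) read 7.94, 7.16 and 7.53 in normoxia and 5.98, 6.51 and 5.77 in hyperoxia. Its groups were apart, and the fall was 2.75-fold (log2 fold change -1.46, SE 0.22, adjusted p = 6.86e-04), or 1.73-fold without background correction (adjusted p = 0.00144). In Ang4, Defa26, Defa21, Defa20 probe 2 and Defa3 probe 1 the same hyperoxia array (replicate 1) was the highest of its group and the same one (replicate 3) the lowest. Defa39 and both probes of Mptx1, which rose, had this order too. Mmp7, Itln1 and the Lyz1 probes did not.

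Itln1, a lectin that binds sugars of microbial surfaces and is also made by goblet cells, fell as well. Its probe (ILMN_2772117) read 13.06, 12.73 and 12.62 in normoxia and 11.87, 12.05 and 11.20 in hyperoxia, without overlap. The fall was 2.14-fold (log2 fold change -1.10, SE 0.25, adjusted p = 0.00806).

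Mptx1, a secreted mucosal member of the pentraxin family, went the other way on both of its probes. Probe 1 (ILMN_1225061) read 9.26, 8.27 and 7.57 in normoxia and 10.13, 9.92 and 9.91 in hyperoxia. Probe 2 (ILMN_2980898) read 8.62, 7.69 and 7.47 in normoxia and 9.35, 9.32 and 9.20 in hyperoxia. On both probes the hyperoxia arrays lay close together above a spread normoxia group (SD 0.85 and 0.61 in normoxia, 0.12 and 0.08 in hyperoxia, n = 3). The rise was 3.07-fold on probe 1 (log2 fold change 1.62, SE 0.30, adjusted p = 0.00273) and 2.58-fold on probe 2 (log2 fold change 1.37, SE 0.24, adjusted p = 0.00220). The difference between the probes was 0.25 (95% CI -0.25 to 0.75). Before normalization the groups overlapped slightly, at 280 to 694 against 661 to 1047 for probe 1.

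In the lung, 4 of the 17 probes were tested, and 1 of them was lower with hyperoxia, against 9.44% of all 17272 tested probes that were lower and 8.74% that were higher. This was Lyz1 probe 2, which read 12.46, 12.38 and 11.79 in normoxia and 11.28, 11.07 and 11.85 in hyperoxia. The highest hyperoxia array lay above the lowest normoxia array, the log2 fold change was -0.81 (SE 0.24, adjusted p = 0.0296), and the call was lost under 9 of 23 other settings. Lyz1 probe 1, at 12.03, 11.79 and 11.51 against 11.01, 11.21 and 11.38, did not overlap but did not pass (log2 fold change -0.58, 95% CI -1.13 to -0.03, adjusted p = 0.143). With the lung fitted alone probe 1 passed (adjusted p = 0.0493) and probe 2 did not (adjusted p = 0.0502). Lyz1 probe 3, at 14.57, 14.61 and 14.45 against 14.48, 14.17 and 14.54, had a log2 fold change of -0.15 (95% CI -0.52 to 0.23, adjusted p = 0.622). Mptx1 probe 2 stayed near background, with 5.32, 5.40 and 5.43 against 5.05, 5.13 and 5.47 (log2 fold change -0.17, adjusted p = 0.698). The other 13 probes were not tested in the lung, and of these only Itln1 was detected there at all, on 1 hyperoxia array.

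Lyz1 was thus the only effector read brightly in both tissues. In normoxia its probes were higher in the ileum than in the lung by a log2 of 0.78 (probe 1, SE 0.26, adjusted p = 0.0198) and 0.60 (probe 2, SE 0.24, adjusted p = 0.0462), while probe 3 differed by 0.06 (95% CI -0.32 to 0.43, adjusted p = 0.807). The call of probe 1 was lost under 4 and that of probe 2 under 11 of 22 other settings. On each probe the order of group means ran from normoxia ileum through normoxia lung and hyperoxia lung, and on probes 1 and 3 hyperoxia ileum came last. On probe 3 the other 3 groups lay within a log2 of 14.40 to 14.60, and neighbours in this order overlapped. On probe 2 hyperoxia lung (11.40) and hyperoxia ileum (11.42) stood together within their SDs of 0.41 and 0.29. Lyz2, the near-identical M lysozyme of macrophages and lung epithelium, was brighter in the lung. Its probe 1 read 13.72 to 13.83 in normoxia lung against 9.42 to 10.78 in normoxia ileum. In the ileum the 2 tested Lyz2 probes had log2 fold changes of 0.32 (adjusted p = 0.479) and 0.25 (adjusted p = 0.458), so the ileum fall of the Lyz1 probes stood beside no fall of Lyz2 that passed. How much of the lung signal of the Lyz1 probes came from Lyz2 transcripts was not tested.

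**Figure D4:**
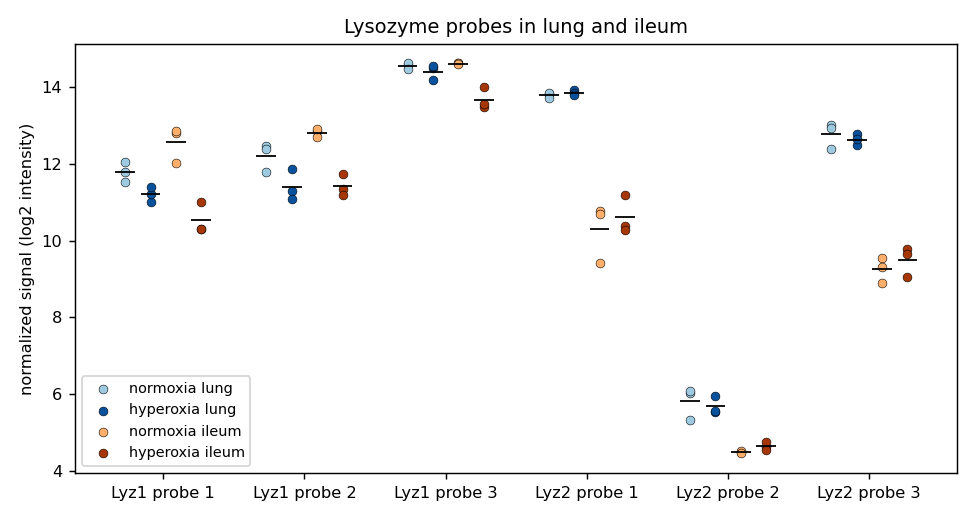
Normalized signal (log2 intensity) of the 3 Lyz1 and 3 Lyz2 probes on each of 12 arrays, with points for arrays and black lines for group means. The Lyz1 probes are lowest or near lowest in hyperoxia ileum, whereas Lyz2 probes 1 and 3 separate lung from ileum and Lyz2 probe 2 lies between 4.46 and 6.09.

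The difference between the hyperoxia effects of the 2 tissues (ileum minus lung) was lower for 8 probes, higher for 2 and did not pass for 7, against 12.1% and 11.8% of all 18890 tested probes. For probes undetected in the lung this value sets the ileum change against a difference between signals at background, so only Lyz1 compares changes measured above it. Mptx1 probe 2 lay near background in the lung and was detected on only 1 of the 3 hyperoxia lung arrays. Lyz1 probe 1 fell more in the ileum by -1.44 (SE 0.36, adjusted p = 0.0126) and probe 3 by -0.79 (SE 0.25, adjusted p = 0.0341), whereas probe 2 did not pass (-0.58, 95% CI -1.30 to 0.14, adjusted p = 0.221). Mptx1 probe 2 differed by 1.53 (SE 0.35, adjusted p = 0.00733). Ang4 did not pass (-1.43, adjusted p = 0.0551).

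Other genes known from Paneth cells were mostly lower in the hyperoxia ileum too. Of 17 tested probes of such genes, 12 were lower, 0 were higher and 5 did not pass, with a median log2 fold change of -1.36. Of all tested ileum probes, 12.9% were lower and 12.3% higher. This list was chosen with earlier results of these data known. The study had already reported Pnliprp2, Dmbt1, Gpx2, Guca2b and Reg3g as changed in this ileum, so the count is not independent support. RNA of the phospholipase gene Pla2g2a changed by a log2 of -2.87 (adjusted p = 3.82e-07, limma), and whether these pups make an active enzyme from it was not tested. Dmbt1, a scavenger receptor that binds bacteria, changed by -1.96 (adjusted p = 3.19e-05). The lipase gene Pnliprp2 fell on both probes (-2.17 and -2.41). Reg3g, a lectin that kills Gram-positive bacteria, had a log2 fold change of -1.55 with an SE of 0.96 and did not pass (adjusted p = 0.247), and the Spink4 value was -0.35 (adjusted p = 0.409).

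Genes that control the secretory lineage were divided, with 6 of 13 tested probes lower, 0 higher and 7 not passed, beside the same 12.9% and 12.3%. Bhlha15, which encodes a factor of secretory cell architecture, fell on its 3 probes by 1.62 to 2.09 on the log2 scale, and Gfi1 and Spdef, which act in Paneth and goblet cell differentiation, fell by 0.80 (adjusted p = 0.0234) and 0.86 (adjusted p = 0.0387). The remaining lower probe was of Hes1 (-0.83, adjusted p = 0.0191), and the count does not separate genes by the direction in which they act. Both probes of Sox9, which Paneth cells need to form, did not pass (0.25 and 0.52), nor did Xbp1 (-0.21, adjusted p = 0.332).

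Markers of other cells of the ileum moved as well, and their part in the results above was not tested. Their counts stand beside the same 12.9% lower and 12.3% higher of all tested probes. The enteroendocrine list had 5 of 7 tested probes lower and 0 higher (median -0.76), and its summed signal was 4476 to 4758 in normoxia and 1967 to 3261 in hyperoxia. The goblet list had 4 of 9 lower and 1 higher (median -0.14), with Retnlb (a bactericidal resistin-like protein) at -3.82 and Zg16 (a lectin of the mucus) at -2.97, whereas the mucin Muc2 stood at -0.11 (adjusted p = 0.707). The general epithelium list had 4 of 9 lower and 1 higher (median -0.31), and its summed signal was 34180 to 40570 in normoxia and 24050 to 28610 in hyperoxia, with Krt20 at -2.08 and Epcam at 0.05. The myeloid list had 1 lower and 1 higher of 8 (median 0.25), which is near those shares. The hyperoxia ileum arrays were also dimmer before normalization, with a mean intensity of 313 to 427 against 464 to 481 in normoxia ileum, and the ratio of bright probes (the 95th percentile) to background was 11.8 to 13.7 against 16.2 to 16.6. All 12 arrays detected 42.6% to 46.0% of probes.

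The genes nearest to each effector over the 6 ileum arrays, out of 11178, were found by the root mean square difference. Each gene was represented by its brightest probe tested in the ileum, with that probe's own mean taken off. A small value means deviations of like size and direction, which flat probes also give. Defa20 probe 1 lay 0.0314 from Rxylt1, with log2 fold changes of -0.04 and -0.03. How much of a near match came from the group difference alone was not tested. Defa21 was nearest to Tap1 (0.154), Ccl5 (0.178) and Smpdl3b (0.228). Ang4 was nearest to Ccl21a (0.124), the colipase gene Clps of the Paneth cell list (0.129) and Rps13 (0.153), and Defa26 was also nearest to Ccl21a (0.146). Lyz1 probe 3 was nearest to Epha2 (0.0909), Itln1 to Cad (0.0488) and Mmp7 to Mapk13 (0.164). Mptx1 probe 1 was nearest to Tex9 (0.213).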

How the data were processed

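RNA was read on 12 Illumina MouseWG-6 v2.0 arrays in 1 colour, 3 for each of 4 groups. Tissue was taken from the tissue characteristic, since the source name gave another tissue for 6 samples. The authors deposited bead intensity per probe from GenomeStudio 2011.1, not normalized, with a detection p-value per probe deposited beside it. A second deposited set of normalized intensity values, made in a way the sources do not state, served as an alternative.

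From these intensities, neqc of limma 3.58.1 in R 4.3.3 made background-corrected, quantile-normalized log2 values with an offset of 16. A single symbol was given for 34885 probes, several for 18 and none for 10378, symbols were updated through Entrez IDs, and probes with 1 symbol were tested where 3 or more of the 6 arrays of a comparison had a detection p-value under 0.05. A limma model with 4 group means was fitted over 12 arrays, and p-values were adjusted by Benjamini-Hochberg over all tested probes (called under 0.05). All adjusted p-values are from limma. No gene was reduced to 1 probe in the tests. Only for the likeness of patterns was each gene represented by its brightest probe tested in the ileum. Bounds ("at least") set the ileum mean against the lung arrays' dimmest detected signal, or the probe's own value there if that was higher. An exact test of 3 arrays against 3 cannot go below 0.1 and was not run. The number of arrays limits the precision. The fit was tested on data simulated from the fitted means and spreads. The ileum test recovered 59% of log2 changes of size 1 and 98% of size 2, with 6 false calls. The pair test recovered 48.45% of changed pairs, with 1 false call. A probe or pair that did not pass may therefore still have changed.

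Alternatives were no background correction, 75th percentile scaling, the deposited normalized values, an offset of 50, no or a stricter detection filter (0.01), all detected probes, each tissue alone, an ordinary linear model, a replicate block, array weights and leaving out each array with the tested probes kept. The genes and lists were chosen with earlier results of these data known, and every probe of the 10 genes is named. Promoters are from RefSeq (GRCm38.p6). Figures used matplotlib 3.10.9 (Python 3.11.15).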

Additional observations from a re-analysis of the deposited data

Results flagged for a closer look

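The hyperoxia effect differed between ileum and lung (ileum minus lung, interaction in limma, adjusted p under 0.05) for 10 probes. Among probes tested in both tissues these were Lyz1 probe 1 at -1.44, Lyz1 probe 3 at -0.79 and Mptx1 probe 2 at 1.53 on the log2 scale. The last lay near background in the lung and was detected on only 1 of the 3 hyperoxia lung arrays. The other probes were not detected on enough lung arrays to be tested there, so their values set the ileum change against a difference between lung signals at background: Defa21 at -2.42, Defa20 probe 2 at -2.25, Defa26 at -1.71, Mmp7 at -1.56, Defa3 probe 1 at -1.33, Itln1 at -1.25 and Mptx1 probe 1 at 1.66. The calls of Lyz1 probe 3 and Defa3 probe 1 were the least stable, lost under 11 and 12 of 22 other settings.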

How the results depend on the processing

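In the ileum the counts of 10 lower and 2 higher probes stayed within 10 to 11 and 2 to 3 when each array was left out, and no called probe changed sign under any setting tried. Of single ileum calls, Ang4 was lost with each tissue alone and with the ordinary linear model, Defa3 probe 2 (higher) passed under 6 of 23 settings and Defa23 (lower) under 5. The lung count of 1 lower probe became 0 with 75th percentile scaling, no detection filter, the ordinary linear model or the replicate block, became 2 with array weights, and ranged from 0 to 1 with arrays left out (0 without normoxia lung replicate 1 or 2, or hyperoxia lung replicate 1 or 2). The 8 lower differences between tissues became 5 with the ordinary linear model and ranged from 5 to 9 with arrays left out (5 without normoxia lung replicate 2). The 16 probes higher in normoxia ileum than in lung ranged from 14 to 16. The 0 called probe pairs became 3 with no background correction, 2 with 75th percentile scaling, 2 with an offset of 50, 1 with the stricter filter and 3 with array weights, and stayed at 0 with arrays left out. Over all pairs the count of 9 became 107 with no background correction, 41 with 75th percentile scaling, 0 with the deposited values, 50 with an offset of 50, 28 with no filter, 26 with the stricter filter, 3 with the ordinary linear model, 0 with the replicate block and 146 with array weights, and 0 when any 1 ileum array was left out. Over all probes, fitting each tissue alone reduced the ileum calls from 2204 lower and 2093 higher to 1011 and 823, leaving out normoxia ileum replicate 3 to 1072 and 939 and replicate 2 left 1338 higher, and array weights raised the lung calls from 1631 lower and 1510 higher to 2688 and 2785, while 1000 were higher there without normoxia lung replicate 1. The cause of these shifts was not tested. Replicate numbers followed the order of the samples, and same-numbered deviations had correlations from -0.207 to 0.0924. As the numbers are not stated to be pups, this cannot tell whether lung and ileum arrays came from the same pups. The replicate block changed no ileum call of the 17 probes. Precision is limited by 3 arrays a group and, for Mmp7, Defa3 probe 1 and Mptx1, by signal nearer to background.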
